A study of Mus musculus with 8 samples.

Results

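The cyclin-dependent kinase (CDK) inhibitors are a small group of cell cycle brakes, followed here as 8 genes of the 24573 in the deposited count table: Cdkn1a, Cdkn1b, Cdkn1c, Cdkn2a, Cdkn2b, Cdkn2c, Cdkn2d and Cdkn3. They were chosen by name and family, through the gene IDs of the table. All 8 are listed, 7 have a count in some library, and 6 passed the filter on low counts and were tested. RNA was sequenced from proliferating C2C12 cells, a mouse myoblast line that grows as muscle precursors and can fuse into myotubes. Lentivirus carried a short hairpin RNA (shRNA) into the cells, followed by puromycin selection, and every group, the control included, went through both. The groups were shRNA against Brd9, shRNA against Baf250A (the protein of the Arid1a gene), shRNA against Baf180 (the protein of Pbrm1), and a scrambled shRNA, with 2 libraries each. The titles name 1 shRNA per target and 1 scramble line, so an effect of a single hairpin cannot be told apart from loss of its target. The labels do not tell whether the libraries of a pair are separate cultures or one culture sequenced again, so the p-values describe library-to-library spread that could be technical.

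CDKs drive the cell cycle when bound to cyclins, and the inhibitors hold them back. The Cip/Kip proteins p21 (Cdkn1a), p27 (Cdkn1b) and p57 (Cdkn1c) bind cyclin-CDK complexes broadly, with cyclin E and A complexes of Cdk2 as their best known targets. The Ink4 proteins p16 (from Cdkn2a), p15 (Cdkn2b), p18 (Cdkn2c) and p19 (Cdkn2d) bind Cdk4 and Cdk6 and keep them from D-type cyclins, which leaves the retinoblastoma protein active. Cdkn2a also encodes Arf from another reading frame, which stabilises p53. Cdkn3 encodes a phosphatase of Cdk2 and Cdk1, belongs to neither family, and is expressed mainly in dividing cells. In the muscle lineage p21 is known for its rise when myoblasts leave the cycle and differentiate, and p57 for acting beside it. Brd9, Baf250A and Baf180 are subunits of different forms of the SWI/SNF family of chromatin remodellers.

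Promoter sequences are shown for Cdkn1a, the most abundant inhibitor of these cells, and for Cdkn1b. Cdkn1b was the member called between Brd9 and Baf180 both with TMM scaling (trimmed mean of M-values) and with offsets for GC content and length. Each sequence is the 150 bases before a RefSeq transcription start on GRCm38.p6, read 5′ to 3′ on the gene's strand. Cdkn1a has 2 such starts. In the upstream one (chr17:29090829-29090978, plus strand) the capitals mark matches to the p53 consensus half-site.
Cdkn1a upstream start: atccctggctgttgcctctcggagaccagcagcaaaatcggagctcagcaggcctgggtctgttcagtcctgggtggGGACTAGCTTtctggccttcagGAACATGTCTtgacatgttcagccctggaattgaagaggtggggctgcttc
In the downstream one (chr17:29093619-29093768, plus strand) they mark the GC box, GGGCGG.
Cdkn1a downstream start: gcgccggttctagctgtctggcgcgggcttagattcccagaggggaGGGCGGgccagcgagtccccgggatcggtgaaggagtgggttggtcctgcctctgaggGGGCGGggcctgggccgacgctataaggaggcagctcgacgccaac
In the Cdkn1b window (chr6:134920251-134920400, plus strand) they mark a GC box and a CCAAT box, CCAAT.
Cdkn1b start: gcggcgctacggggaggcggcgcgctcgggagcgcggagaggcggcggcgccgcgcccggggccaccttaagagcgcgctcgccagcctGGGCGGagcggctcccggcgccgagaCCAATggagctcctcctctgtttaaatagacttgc

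The upstream Cdkn1a window held 2 half-site matches and no GC box, and the downstream one held 2 GC boxes and no half-site. Over the windows of the same length before 32851 RefSeq starts, searched on both strands, 4.01% held a half-site, 28.6% a GC box and 24.5% a CCAAT box. The other motifs searched were the TATA box (TATAAA, 7.57% of all windows), the E-box (CANNTG, 47.7%) and the cell cycle element CHR (TTTGAA, 9.07%), and none of these letters stood in the 3 windows printed. The windows also differ in base composition. In the 250 bases before the start, the ratio of observed to expected CpG was 0.11 at the upstream Cdkn1a start, 0.771 at the downstream one and 1.08 at Cdkn1b, which put them at the 16.3rd, 78.7th and 97.4th percentile of all starts. The promoter table has entries for 7 of the 8 members, and Cdkn1c is the one without. The counts are per gene, so they do not say which Cdkn1a start was used, and a match of letters is not a site that was seen bound.

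The libraries held 17763083 to 20400870 estimated counts, and 14201 to 14776 genes with a count, apart from scramble replicate 2 with 16410. Each shRNA lowered its own target, by 5.24-fold for Brd9, 2.41-fold for Arid1a and 12.4-fold for Pbrm1 (edgeR quasi-likelihood test, adjusted p = 7.48e-05, 0.000184 and 7.04e-05). The libraries also differed by the base composition of genes. Among the tenth of tested genes with the lowest GC content (up to 42.3% GC), the median deviation of log2 CPM (counts scaled to a common library total) from the gene's mean was 0.44 and 0.05 in the Brd9 libraries, 0.48 and 1.06 in Baf250A, −1.10 and −0.69 in Baf180, and −0.18 and −0.01 in scramble. The fit was therefore repeated with GC and length offsets, and its values are given beside the others where a call or a size depends on it. By GC content Cdkn1c stands at the 92.7th percentile of tested genes, Cdkn2d at the 78.2nd, Cdkn1a at the 70.3rd, Cdkn2c at the 54.6th, Cdkn3 at the 37th and Cdkn1b at the 24.8th. All 8 myoblast markers were detected in every group except Msc, which had 0 counts in both Baf250A libraries, and their summed level was 1487 and 1934 CPM in Brd9, 1006 and 782 in Baf250A, 3495 and 2462 in Baf180, and 1910 and 1893 in scramble.

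Of the 6 members tested, 3 passed the test in Baf180 against scramble (Cdkn1a, Cdkn1c and Cdkn2c), where 34.2% of all 12420 genes did. In Baf250A, 1 passed (Cdkn2c), where 29.5% of all genes did. All 4 of these were higher than in scramble. In Brd9 the edgeR test called 0 members, where it called 10.0% of all genes; 3 members had an unadjusted p below 0.05, and DESeq2 and limma-voom also called 0. With the offsets the members called were 2 in Baf180 (38.2% of all genes), 3 in Baf250A (35.3%) and 1 in Brd9 (30.1%). The 3 comparisons share the same 2 scramble libraries, so a member that lies high or low there moves in all of them.

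**Figure D1:**
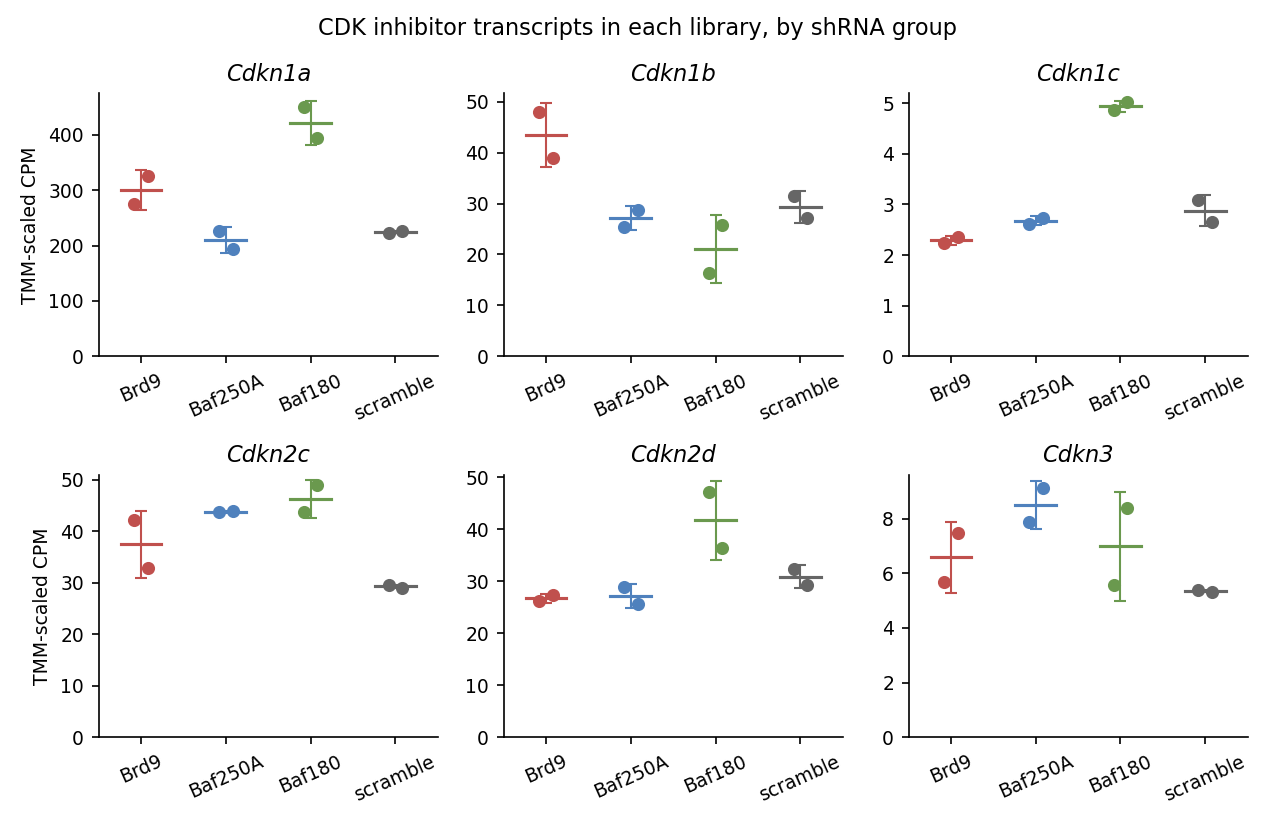
TMM-scaled CPM of the 6 detected CDK inhibitors in each library (points), with the group mean (bar) and SD (whiskers, n = 2), for the Brd9, Baf250A, Baf180 and scramble shRNAs. Cdkn1a reaches 449 and 394 CPM in the Baf180 libraries, above every other library, and Cdkn1b reaches 47.99 and 38.97 CPM in the Brd9 libraries.

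Cdkn1a, which encodes p21, had the largest fold change called against scramble with TMM scaling, in Baf180. It lies on chromosome 17 (29090979 to 29100722). Its level, as TMM-scaled CPM, was 274 and 325 in the Brd9 libraries, 226 and 194 in Baf250A, 449 and 394 in Baf180, and 223 and 226 in scramble. Both Baf180 libraries lay above all others, and both Brd9 libraries came next. Baf250A replicate 1 lay between the scramble libraries and Baf250A replicate 2 below them.

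Against scramble, Cdkn1a rose 1.88-fold in Baf180 (log2 fold change 0.91, SE 0.15, adjusted p = 0.00256, edgeR). It stayed called in every alternative, and with any library left out the value was 0.81 to 1.00. Its log2 fold change with the offsets was 0.58 (adjusted p = 0.00039). In Brd9 the level was 1.33-fold that of scramble and missed the threshold (log2 fold change 0.41, SE 0.14, adjusted p = 0.0947), though the groups did not overlap. With the offsets it passed, at 0.46 (adjusted p = 0.00245). In Baf250A the log2 fold change was −0.10 (SE 0.14, adjusted p = 0.619), with groups that overlap, and with the offsets 0.23 (adjusted p = 0.0449), a change of sign. That call ended when a replicate block was added to the offsets. The sequencing was of bulk RNA, in which a gene made by more cells and a gene made at a higher level per cell cannot be told apart.

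The knockdowns also differed from each other in Cdkn1a. It was 2.01-fold higher in Baf180 than in Baf250A (log2 fold change 1.00, SE 0.15, adjusted p = 0.000471, edgeR), a call kept in every alternative, with a log2 fold change of 0.35 under the offsets (adjusted p = 0.004). It was 1.43-fold higher in Brd9 than in Baf250A (log2 fold change 0.51, SE 0.14, adjusted p = 0.0303). This call ended without scramble replicate 1 or 2, Brd9 replicate 2, or Baf250A replicate 1 or 2. It also ended in a fit of the 4 libraries alone, with a replicate block, and with that block and the offsets together. With the offsets alone this difference was 0.23 (adjusted p = 0.0409). Brd9 was 1.41-fold lower than Baf180 (log2 fold change −0.49, SE 0.14, adjusted p = 0.0212), and this call ended without Brd9 replicate 1 or Baf180 replicate 1, with the 4 libraries alone and with the offsets (−0.12, adjusted p = 0.257). With TMM scaling the highest Cdkn1a level was thus that of Baf180 and the lowest that of Baf250A, which overlapped scramble. Once the offsets were used, Brd9 was not set apart from Baf180, and Baf250A was called higher than scramble.

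Cdkn1b encodes p27, the inhibitor best known for rising in resting cells and for its removal by the Skp2 ubiquitin ligase. It lies on chromosome 6 (134920401 to 134925525). Its level was 47.99 and 38.97 CPM in Brd9, 25.4 and 28.8 in Baf250A, 16.3 and 25.8 in Baf180, and 31.6 and 27.2 in scramble. The Brd9 libraries were above all others. Both Baf180 libraries and Baf250A replicate 1 were below both scramble ones, and Baf250A replicate 2 lay between them.

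Neither difference from scramble passed the edgeR test. Cdkn1b had a log2 fold change of 0.57 in Brd9 (SE 0.22, adjusted p = 0.125) and of −0.48 in Baf180 (SE 0.23, adjusted p = 0.123). With the offsets these were 0.34 (adjusted p = 0.0633) and −0.17 (adjusted p = 0.345). The Brd9 difference did pass with no low-count filter and in a fit of the 4 libraries alone. The Baf180 value rested on replicate 1: without Baf180 replicate 2 it was −0.85 and passed (adjusted p = 0.0196), and without replicate 1 it was −0.19 (adjusted p = 0.568). In Baf250A the log2 fold change was −0.11 (SE 0.22, adjusted p = 0.708), and with the offsets −0.40, which passed (adjusted p = 0.0342). That call too ended when a replicate block was added to the offsets.

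Between the knockdowns Cdkn1b was 2.06-fold higher in Brd9 than in Baf180 (log2 fold change 1.05, SE 0.22, adjusted p = 0.00773, edgeR). This kept its call with the offsets, at 0.51 (adjusted p = 0.0139), and lost it without Brd9 replicate 1 or Baf180 replicate 1, with a range of 0.75 to 1.41 over the libraries left out. Cdkn1b in Brd9 was 1.60-fold that in Baf250A and lay at the threshold (log2 fold change 0.68, SE 0.22, adjusted p = 0.0509). That difference passed under DESeq2, limma-voom, upper-quartile scaling, no filter and the offsets (0.74, adjusted p = 0.00105). Of the 6 members tested, Cdkn1b and Cdkn1a were thus called in opposite directions between Brd9 and Baf180, Cdkn1b higher in Brd9 and Cdkn1a lower, the second only without the offsets.

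Cdkn1c encodes p57 and is an imprinted gene, expressed from the maternal copy. It lies on chromosome 7 (143458339 to 143461059) and was the least abundant member that could be tested. Its counts were 46 and 45 in Brd9, 52 and 53 in Baf250A, 84 and 92 in Baf180, and 55 and 46 in scramble, which is 2.23 and 2.36, 2.62 and 2.74, 4.87 and 5.02, and 3.09 and 2.66 CPM in the same order. Only the Baf180 libraries stood apart, above the other 6.

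Against scramble, Cdkn1c rose 1.72-fold in Baf180 (log2 fold change 0.78, SE 0.23, adjusted p = 0.028, edgeR). The call ended without any one of the 2 scramble or 2 Baf180 libraries (adjusted p = 0.0651 to 0.167), with DESeq2 (adjusted p = 0.0873) and with the offsets, which gave 0.30 (adjusted p = 0.325). Cdkn1c has the highest GC content of the tested members. The log2 fold change was −0.33 in Brd9 (SE 0.24, adjusted p = 0.378) and −0.10 in Baf250A (SE 0.24, adjusted p = 0.75; 0.38 with the offsets), neither past the threshold. Baf180 also exceeded Baf250A (log2 fold change 0.88, adjusted p = 0.00799) and Brd9 lay below Baf180 (−1.11, adjusted p = 0.00709), calls that ended without Baf250A replicate 1 for the first and without Brd9 replicate 1 for the second. With the offsets the first of these was −0.08 (adjusted p = 0.79) and the second −0.55 (adjusted p = 0.0979), so no difference in Cdkn1c was called once GC content was modelled.

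Around Cdkn1c, the other genes of its imprinted domain had their own levels. Kcnq1ot1, the paternally expressed RNA that silences the domain in cis, had 115 and 71 counts in Brd9, 157 and 318 in Baf250A, 49 and 62 in Baf180, and 100 and 2332 in scramble. The scramble libraries themselves lie far apart there, through replicate 2, which is also the library with the most genes detected. Cdkn1c had 46 counts in that library and 55 in the other scramble library. Phlda2, another maternally expressed gene, had 0 or 1 count in each library. Slc22a18, 12667 bases from Cdkn1c, had 6 and 4 counts in Brd9, 0 and 0 in Baf250A, 17 and 10 in Baf180, and 3 and 5 in scramble, too few to be tested, with its highest counts in Baf180 as for Cdkn1c. The biallelic neighbours Nap1l4 and Cars had 1842 to 2671 and 1293 to 1981 counts. In Baf180 Nap1l4 fell by 0.41 on the log2 scale (adjusted p = 0.0278, edgeR), and by 0.46 with the offsets. Cars was at 0.03 there (adjusted p = 0.883), and at −0.24 with the offsets (adjusted p = 0.0396).

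**Figure D2:**
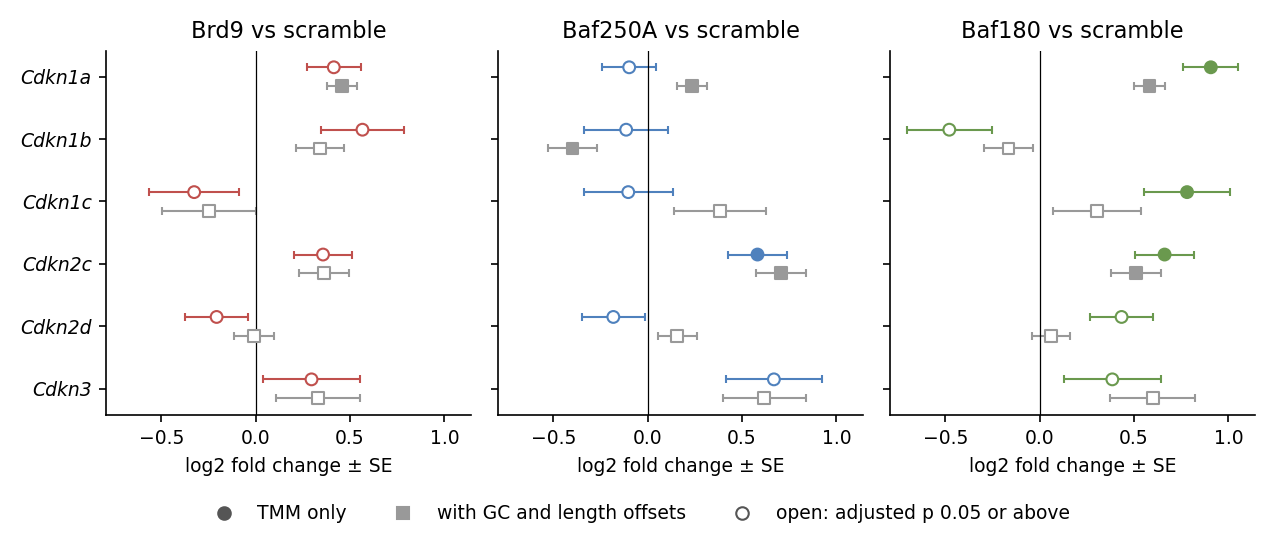
Log2 fold change ± SE of the 6 tested CDK inhibitors against scramble in the Brd9, Baf250A and Baf180 libraries, by the fit with TMM scaling (circles) and the fit with GC and length offsets (squares); filled symbols have an adjusted p below 0.05. Cdkn1a and Cdkn2c stay filled in Baf180 with both fits, while Cdkn1c moves from 0.78 to 0.30 and loses its call.

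Among the Ink4 genes, Cdkn2a and Cdkn2b were at or near 0 in every library. Cdkn2a (chromosome 4, 89274473 to 89294619) had 1 count, in Baf250A replicate 2, and 0 in the other 7 libraries. Cdkn2b (chromosome 4, 89306289 to 89311032), which lies 11670 bases away, had 0 in all 8. A count of 0 allows up to 3 counts, which is 0.145 to 0.174 CPM in these libraries, so neither p16, Arf nor p15 RNA was detected above that level with any shRNA. No fold change is given for either gene.

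The genes beside them show where RNA was detected in the region. Mtap, a methionine salvage enzyme 93383 bases from Cdkn2a, had 3636 and 2895 counts in Brd9, 3535 and 3879 in Baf250A, 1414 and 2023 in Baf180, and 3713 and 3311 in scramble. It fell 2.08-fold in Baf180 (log2 fold change −1.06, SE 0.17, adjusted p = 0.00255, edgeR), and with the offsets by 0.74 on the log2 scale. On the other side Gm12610, which overlaps Cdkn2b, had 0 to 2 counts, Dmrta1 0 or 1, and Zfp352 0 to 4. RNA was thus abundant at Mtap and near 0 from Cdkn2a through Cdkn2b to Zfp352, 924201 bases on. RNA counts do not tell a silent gene from one missing in this line's genome.

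**Figure D3:**
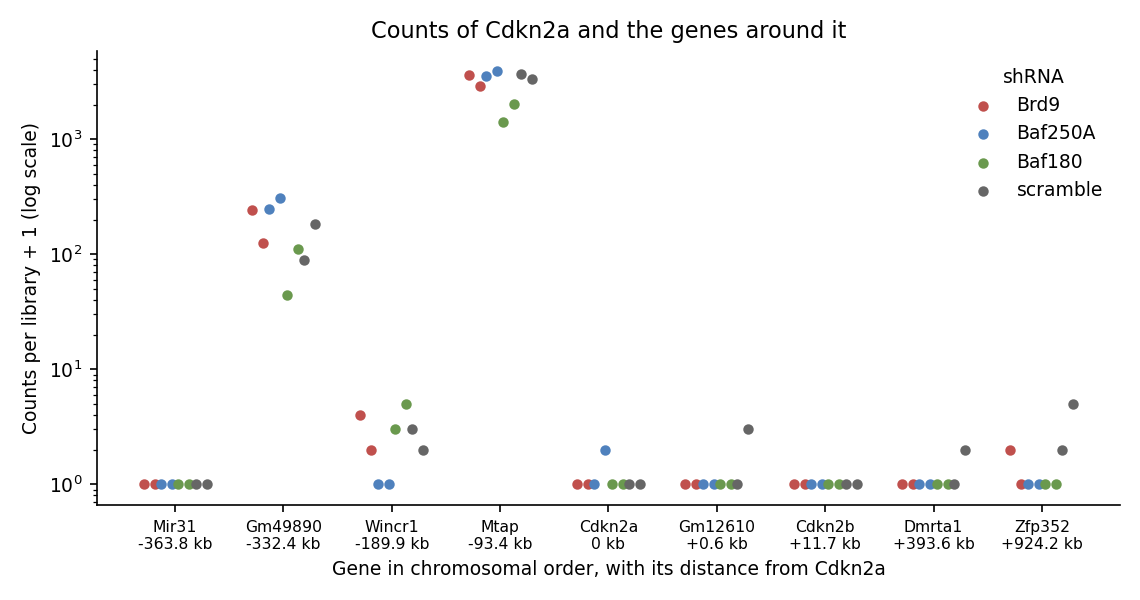
Counts + 1 per library (log scale) of Cdkn2a, Cdkn2b and the genes around them, in chromosomal order with their distance from Cdkn2a, coloured by shRNA. Mtap has 1414 to 3879 counts in every library, while Cdkn2a has at most 1 count and Cdkn2b has 0.

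Cdkn2c, which encodes p18, was the only tested Ink4 gene called against scramble with TMM scaling. It lies on chromosome 4 (109660876 to 109666756). Its level was 42.1 and 32.9 CPM in Brd9, 43.8 and 44.0 in Baf250A, 43.8 and 48.9 in Baf180, and 29.5 and 29.1 in scramble. Every knockdown library was above both scramble libraries, and Brd9 replicate 2 was the nearest to them.

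Cdkn2c rose 1.5-fold in Baf250A (log2 fold change 0.58, SE 0.16, adjusted p = 0.023, edgeR) and 1.58-fold in Baf180 (0.66, SE 0.16, adjusted p = 0.0127). Both stayed called with the offsets, at 0.71 (adjusted p = 0.00232) and 0.51 (adjusted p = 0.0123). Both calls ended without either scramble library, and the Baf250A one also without Baf250A replicate 2, while the fold changes kept to 0.57 to 0.65 and 0.58 to 0.74. In Brd9 the log2 fold change was 0.36 (SE 0.16, adjusted p = 0.159), with adjusted p = 0.0599 under the offsets. No difference in Cdkn2c passed between knockdowns: it was 0.08 for Baf180 against Baf250A (adjusted p = 0.669), −0.23 for Brd9 against Baf250A (adjusted p = 0.315) and −0.30 for Brd9 against Baf180 (adjusted p = 0.125). Since the scramble libraries are shared, a low value of that line would enter both calls.

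Cdkn2d encodes p19 of the Ink4 family, a protein distinct from Arf, and lies on chromosome 9 (21288459 to 21291421). Its level was 26.1 and 27.3 CPM in Brd9, 28.8 and 25.6 in Baf250A, 47.1 and 36.3 in Baf180, and 32.4 and 29.3 in scramble. The Baf180 libraries were the highest and the other knockdowns lay just below scramble.

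None of the differences from scramble passed for Cdkn2d. The log2 fold change was 0.43 in Baf180 (SE 0.17, adjusted p = 0.0697, edgeR), which passed without Baf180 replicate 2 (0.61, adjusted p = 0.0271) and was 0.06 with the offsets. It was −0.21 in Brd9 (adjusted p = 0.426) and −0.18 in Baf250A (adjusted p = 0.417), and with the offsets −0.01 and 0.16, neither called. Baf180 exceeded Baf250A 1.53-fold (log2 fold change 0.62, SE 0.17, adjusted p = 0.0102), and Brd9 was 1.56-fold below Baf180 (−0.64, SE 0.17, adjusted p = 0.0141). Under the offsets both were lost, at −0.10 (adjusted p = 0.445) and −0.07 (adjusted p = 0.64). Each also lost its call without Baf180 replicate 1, the first also without Baf250A replicate 2 and the second also without Brd9 replicate 1.

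Cdkn3, the phosphatase, lies on chromosome 14 (46760461 to 46771530). Its level was 5.67 and 7.49 CPM in Brd9, 7.90 and 9.14 in Baf250A, 5.57 and 8.402 in Baf180, and 5.39 and 5.32 in scramble. All knockdown libraries were above scramble, but replicate 1 of Brd9 and of Baf180 lay close to it. The largest difference, 1.59-fold in Baf250A, did not pass (log2 fold change 0.67, SE 0.25, adjusted p = 0.0742, edgeR). It passed when either Baf180 library was left out of the fit (lowest adjusted p = 0.0444). The log2 fold change was 0.30 in Brd9 (adjusted p = 0.46) and 0.39 in Baf180 (adjusted p = 0.264), the second 0.60 with the offsets and not called (adjusted p = 0.0584).

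Counted over the direct comparisons of knockdowns, the members called of 6 tested were 3 for Baf180 against Baf250A (62.5% of all genes called), 4 for Brd9 against Baf180 (49.6%) and 1 for Brd9 against Baf250A (25.0%). With the offsets they were 1 (54.8% of all genes), 1 (33.0%) and 2 (44.1%). Under the offsets the calls of Cdkn1a in Baf180 against Baf250A, of Cdkn1b in Brd9 against Baf180 and of Cdkn1a in Brd9 against Baf250A stood, and that of Cdkn1b in Brd9 against Baf250A was gained.

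Levels of different members were compared per length, as TPM, the transcript level per length scaled to a fixed library total, computed from the deposited gene lengths and within each library only. Cdkn1a RNA was 67.3% and 72.4% of the summed TPM of the 8 inhibitors in Brd9, 64.1% and 60.2% in Baf250A, 75.8% and 72.8% in Baf180, and 65.4% and 67.5% in scramble. It exceeded the next member 4.57- to 7.89-fold in every library. The next places were held by Cdkn2d and Cdkn2c, apart from Brd9 replicate 2, where Cdkn1b (6.91%) and Cdkn2c (6.89%) were nearly level, and the lowest detected by Cdkn1c, with 0.521% to 0.922% of the sum. Cdkn2d and Cdkn2c changed places between libraries of Brd9 and of Baf250A, so their order there is within the spread.

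Without the offsets, the balance of p21 to p27 RNA tilted most to p21 in the Baf180 libraries. The ratio of Cdkn1a to Cdkn1b TPM was 7.17 and 10.5 in Brd9, 11.2 and 8.45 in Baf250A, 34.6 and 19.2 in Baf180, and 8.88 and 10.5 in scramble. Both Baf180 values were above those of all other libraries. Cdkn3 ranked above Cdkn1b in Baf180 libraries alone among the 8, but only just, at 11.53 and 20.94 TPM beside 10.85 and 20.67. In Baf250A replicate 2 they were also nearly level, at 25.17 and 25.5 TPM, so this order is within the spread. With the offsets the log2 fold changes of Cdkn1a and Cdkn1b in Baf180 against scramble were 0.58 and −0.17. These were closer together than the 0.91 and −0.48 without them. In Baf250A the offsets moved the same pair further apart, to 0.23 and −0.40 from −0.10 and −0.11. With the offsets the log2 fold change of Cdkn1a was thus above that of Cdkn1b in Baf250A as well as in Baf180. The calls of this pair in Baf250A with the offsets ended when a replicate block was added. The difference between Cdkn1a and Cdkn1b was itself not tested.

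**Figure D4:**
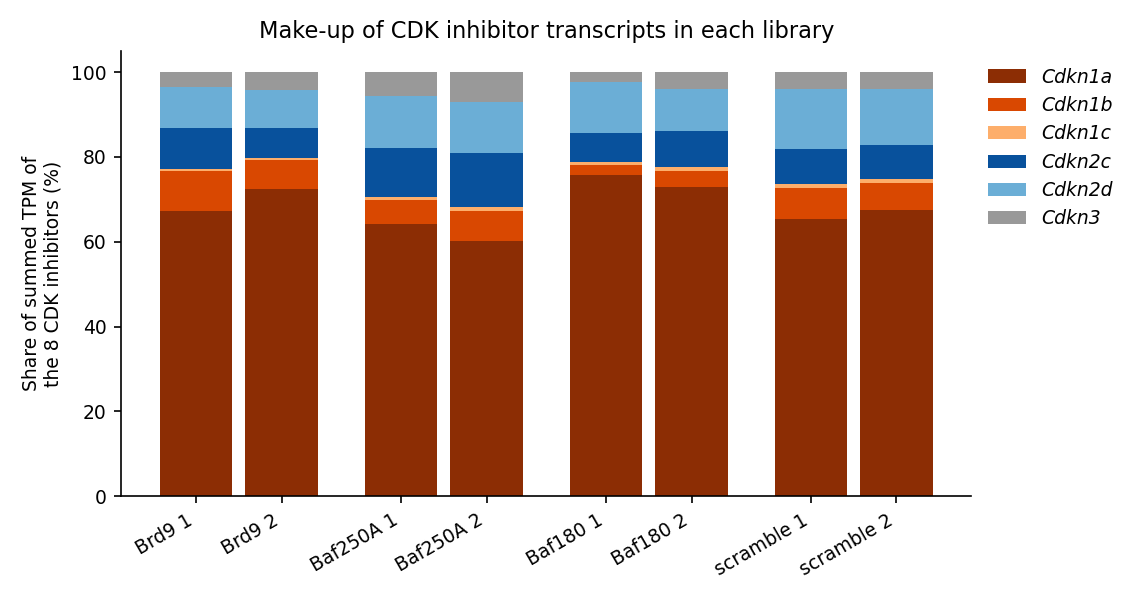
Share of each CDK inhibitor in the summed TPM of the 8 genes, per library, for the Brd9, Baf250A, Baf180 and scramble shRNAs. Cdkn1a takes 60.2% to 75.8% of the sum in every library, and Cdkn1b takes 2.19% and 3.8% in Baf180 libraries, its lowest shares.

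The targets of the inhibitors, the CDKs and cyclins, were more often lower than higher in Baf180. The counts of this list and of those after it stand beside the 10.0% of all genes called in Brd9, 29.5% in Baf250A and 34.2% in Baf180, or 30.1%, 35.3% and 38.2% with the offsets. Of 12 such genes, all tested, 8 passed in Baf180, 7 of them lower, with a median log2 fold change of −0.53 beside −0.02 over all genes. In Brd9 2 passed, both lower (median −0.21 beside 0.04), and in Baf250A 4 passed, 2 in each direction (median 0.00 beside −0.02). With the offsets the calls were 6 lower in Baf180, 8 lower in Brd9, and 3 higher and 3 lower in Baf250A, so the split for Brd9 depends on them. RLE and upper-quartile scaling also gave 7 lower and 1 higher in Baf180.

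The D-type cyclins are the partners that Ink4 proteins displace from Cdk4 and Cdk6. Ccnd2 had 38.5 and 29.9 CPM in Brd9, 55.8 and 70.6 in Baf250A, 15.2 and 19.0 in Baf180, and 72.0 and 68.7 in scramble. The Baf180 and Brd9 libraries were below all others. It fell by 2.04 on the log2 scale in Baf180 (SE 0.19, adjusted p = 0.000184, edgeR) and by 1.04 in Brd9 (SE 0.19, adjusted p = 0.00917). Ccnd1 fell by 0.77 in Baf180 (adjusted p = 0.0032) and by 0.66 in Brd9 (adjusted p = 0.015). Each of these 4 falls was also called with the offsets. Ccnd3, named after its value was seen, was the only one of the list called higher in Baf180 with TMM scaling. Its log2 fold change was 0.69 there (adjusted p = 0.0112, edgeR), and 0.21 with the offsets (adjusted p = 0.0682).

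The E-type cyclins, partners of the Cdk2 that Cip/Kip proteins inhibit, changed in Baf250A and Baf180. Ccne1 fell by 1.05 on the log2 scale in Baf250A (SE 0.14, adjusted p = 0.00102, edgeR), and Ccne2 rose by 2.05 (SE 0.33, adjusted p = 0.00277), which was 0.85 with the offsets. In Baf180 Ccne2 fell by 1.65 (SE 0.36, adjusted p = 0.00966), which was −0.60 with the offsets and still called (adjusted p = 0.0484). Ccne2 had 10.7 and 13.3 CPM in Brd9, 29.5 and 53.9 in Baf250A, 2.32 and 4.04 in Baf180, and 8.59 and 11.5 in scramble. Its Baf250A and Baf180 values lie on opposite sides of scramble, as does the GC trend of those libraries.

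**Figure D5:**
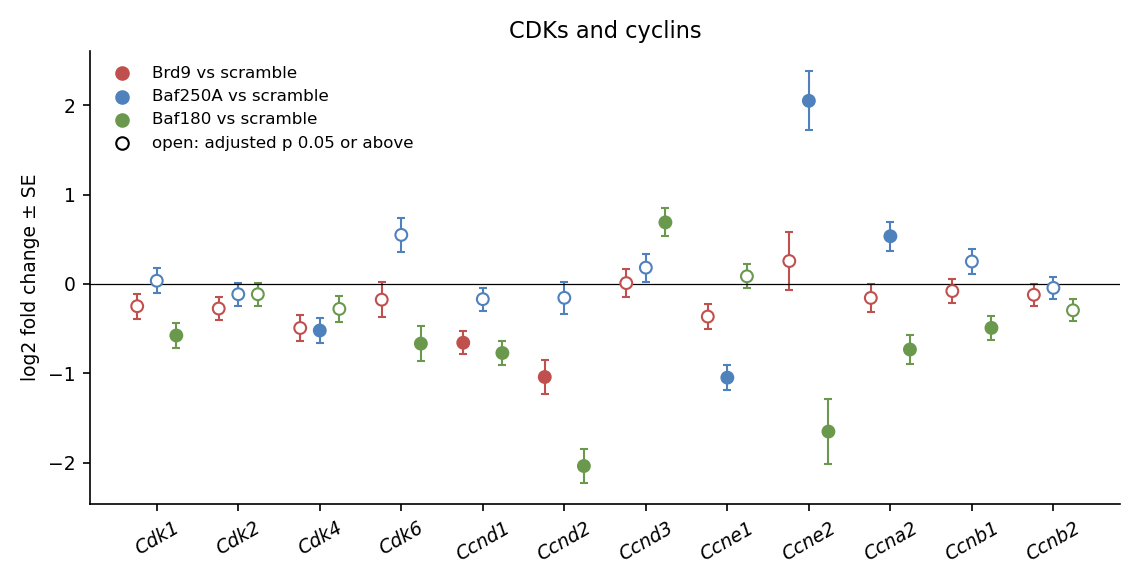
Log2 fold change ± SE of 12 CDKs and cyclins against scramble in the Brd9, Baf250A and Baf180 libraries, with TMM scaling; filled points have an adjusted p below 0.05. Ccnd2 lies at −1.04 in Brd9 and −2.04 in Baf180, and Ccne2 at 2.05 in Baf250A.

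Downstream of the CDKs stand the pocket proteins and the E2F factors they hold. Of 13 such genes, 4 passed in Brd9 (2 higher, 2 lower), 6 in Baf250A, all higher, and 2 in Baf180, both lower. The offsets gave 2 higher and 5 lower in Brd9, 7 higher in Baf250A, and 1 higher and 2 lower in Baf180. In Brd9, E2f2, an activating E2F, fell by 1.26 on the log2 scale (SE 0.15, adjusted p = 0.00142, edgeR), and Rbl2, the p130 pocket protein of resting cells, rose by 1.12 (SE 0.20, adjusted p = 0.00917). In Baf250A, E2f6, a repressor E2F, rose by 0.61 (adjusted p = 0.0148), and Rb1 rose by 1.05 (adjusted p = 0.016), which was 0.23 and not called with the offsets (adjusted p = 0.364). In Baf180, E2f4 fell by 0.51 (adjusted p = 0.0132) and Rbl1 by 0.85 (adjusted p = 0.0384), which were −0.92 and −0.20 with the offsets, the second not called.

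The inhibitors are also set by destruction of their proteins, and RNA of that machinery was measured too. Of 14 genes of inhibitor turnover, 3 passed in Baf180 (1 higher, 2 lower), 5 in Baf250A (3 higher, 2 lower) and 0 in Brd9 by edgeR, where 4 had an unadjusted p below 0.05, DESeq2 called 2 and limma-voom 0. By the fit with offsets 1 was higher and 4 lower in Brd9, 3 higher and 2 lower in Baf250A, and 3 lower in Baf180, among those called. Skp2, the F-box protein that marks p27, p21 and p57 for degradation, had 68.8 and 56.7 CPM in Brd9, 76.5 and 92.3 in Baf250A, 33.3 and 45.6 in Baf180, and 75.8 and 63.2 in scramble. It fell by 0.82 on the log2 scale in Baf180 (SE 0.19, adjusted p = 0.0127), and by 0.69 with the offsets. Dtl, the adaptor that marks p21 on chromatin, rose by 1.38 in Baf250A (SE 0.28, adjusted p = 0.00769), and by 0.91 with the offsets. Its cullin partner Cul4b rose by 1.01 in Baf250A (adjusted p = 0.00981), which was 0.13 with the offsets, and fell by 1.27 in Baf180 (adjusted p = 0.00388), which was −0.55 with the offsets. Protein levels were not measured.

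Of 27 transcriptional regulators known to act on these genes, 24 were tested, and 8 passed in Brd9 and 7 in Baf250A, all higher, and 12 in Baf180, 8 of them higher. The offsets gave 9 higher and 3 lower in Brd9, 8 higher in Baf250A, and 9 higher and 4 lower in Baf180. In Brd9 Hey1, a Notch-responsive repressor, rose by 1.63 on the log2 scale (adjusted p = 0.00295, edgeR) and Smad3, the TGF-beta mediator, by 0.93 (adjusted p = 0.0036). In Baf250A Ets1, known to activate Cdkn2a, rose by 1.10 (adjusted p = 0.00239) and Foxo1, of the family that activates Cdkn1b, by 0.90 (adjusted p = 0.00364). In Baf180 Id3, an inhibitor of E-box factors, rose by 1.09 (adjusted p = 0.00113), and Cbx7, a Polycomb protein known to repress Cdkn2a, by 1.24 (adjusted p = 0.0023; 0.79 with the offsets). All 6 were also called with the offsets.

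The p53 protein and the muscle factor MyoD are the best known activators of Cdkn1a, so their own RNA was looked up, with values already seen. Trp53 had 279 and 360 CPM in Brd9, 364 and 312 in Baf250A, 553 and 460 in Baf180, and 477 and 454 in scramble, with no difference from scramble called. With the offsets it was called lower in Brd9 (log2 fold change −0.50, adjusted p = 0.00339, edgeR). Myod1 had 143 and 181 CPM in Brd9, 129 and 101 in Baf250A, 366 and 292 in Baf180, and 154 and 157 in scramble. It rose in Baf180 by 1.08 on the log2 scale (SE 0.18, adjusted p = 0.00295, edgeR) and by 0.61 with the offsets, and its Baf180 libraries were above all others, as those of Cdkn1a were. In Brd9 its groups overlapped, with a log2 fold change of 0.06 (adjusted p = 0.838), and in Baf250A the value was −0.43 (adjusted p = 0.0925).

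Other p53 targets did not all follow Cdkn1a. Of 25 listed, 24 were tested: 4 passed in Brd9, all higher, 6 in Baf250A, 5 of them higher, and 9 in Baf180, 7 of them higher. With the offsets 8 were called higher in each knockdown, and 1 lower in Brd9, 1 in Baf250A and 2 in Baf180. Fas, a death receptor, rose by 1.39 on the log2 scale in Brd9 (adjusted p = 0.0212, edgeR), by 1.72 in Baf250A (adjusted p = 0.0038) and by 1.88 in Baf180 (adjusted p = 0.0024). Btg2, an antiproliferative gene, rose by 1.11 in Brd9 (adjusted p = 0.00902) and by 1.20 in Baf180 (adjusted p = 0.00289), and Plk2 rose by 0.81 in Baf250A (adjusted p = 0.00655). Mdm2, the p53 ligase gene that p53 itself activates, was looked up with values already seen. It had 117 and 83.3 CPM in Brd9, 69.3 and 85.7 in Baf250A, 39.1 and 55.7 in Baf180, and 69.7 and 76.6 in scramble. Its Baf180 libraries were below all others, with a log2 fold change of −0.63 (SE 0.22, adjusted p = 0.0514), −0.34 with the offsets (adjusted p = 0.0409). RLE scaling gave 8 higher and 1 lower in Baf250A, and upper-quartile scaling 6 higher and 4 lower in Baf180.

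Proliferation genes, of replication and mitosis, were counted next. Of 22, all tested, 3 passed in Brd9 (10.0% of all genes) and 8 in Baf180 (34.2%), all lower, and 8 in Baf250A (29.5%), 6 of them higher. Their median log2 fold change was −0.37 in Brd9, 0.04 in Baf250A and −0.22 in Baf180, beside 0.04, −0.02 and −0.02 over all genes. In Baf180 Bub1, a mitotic checkpoint kinase, fell by 1.36 on the log2 scale (adjusted p = 0.00386, edgeR) and Top2a, the topoisomerase of dividing cells, by 1.04 (adjusted p = 0.00491), which were −0.65 and −0.51 with the offsets. In Brd9 Birc5, a mitotic survival gene, fell by 0.57 (adjusted p = 0.0285) and Mcm7, of the replicative helicase, by 0.75 (adjusted p = 0.0353). In Baf250A Kif11, a spindle motor, rose by 1.22 (adjusted p = 0.00789) and Bub1 by 1.02 (adjusted p = 0.0118), which were 0.51 and 0.20 with the offsets, the second not called. Under the offsets the calls were 13 lower in Baf180, 17 lower in Brd9, and 4 higher and 2 lower in Baf250A. Without the offsets, 11 of the 22 in Brd9 had an unadjusted p below 0.05, and DESeq2 called 9 and limma-voom 3. The Brd9 count thus rests on the test used and on how GC content was treated.

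Genes tied to senescence, the durable arrest that p16 and p21 are known for, were counted as well. Of 11 listed, 10 were tested, and 2 passed in Brd9 and 2 in Baf180, all higher, and 8 in Baf250A, 6 of them higher. Cxcl1, a secreted chemokine, rose by 1.01 on the log2 scale in Brd9 (adjusted p = 0.00207, edgeR), by 1.85 in Baf250A (adjusted p = 4.19e-05) and by 1.08 in Baf180 (adjusted p = 0.000745). Igfbp5, an IGF-binding protein, rose by 1.18 in Brd9 (adjusted p = 0.00299), Ccl2 by 2.22 in Baf250A (adjusted p = 0.000195) and Igfbp7 by 0.73 in Baf180 (adjusted p = 0.005), the last not called with the offsets. With the offsets the calls were 3 higher and 1 lower in Brd9, 6 higher and 2 lower in Baf250A, and 1 in each direction in Baf180. Those that fell in Baf250A with TMM scaling, named after their values were seen, were Igfbp5 and Igfbp3. Their log2 fold changes were −1.59 (adjusted p = 0.000284, edgeR) and −1.49 (adjusted p = 0.00495). The gene called lower in Brd9 with the offsets was Lmnb1 (−0.35, adjusted p = 0.029).

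Cdkn1a also rises with differentiation, so myotube genes were set beside it. Of 18 listed, 11 were tested: 6 passed in Brd9, all higher, 4 in Baf250A, 3 of them lower, and 6 in Baf180, 4 of them higher. The summed level of all 18 was 30.1 and 36.6 CPM in Brd9, 48.6 and 43.2 in Baf250A, 133 and 108 in Baf180, and 30.6 and 34.2 in scramble. Acta1 alone made up 9.41 and 13.8 CPM of that in Brd9, 41.1 and 35.2 in Baf250A, 114 and 93.7 in Baf180, and 15.9 and 17.2 in scramble. The other 17 genes, a split chosen after the values were seen, summed to 20.7 and 22.7 CPM in Brd9, 7.54 and 8.00 in Baf250A, 19.0 and 14.3 in Baf180, and 14.7 and 16.9 in scramble. The high Baf180 sum was thus that of Acta1, and without it the Brd9 libraries were the highest and the Baf250A libraries the lowest. Under the offsets 7 were called higher and 1 lower in Brd9, 1 higher and 2 lower in Baf250A, and 4 higher and 1 lower in Baf180. In Brd9 Atp2a1, the calcium pump of fast fibres, rose by 3.12 on the log2 scale (adjusted p = 0.012, edgeR) and Tnnt1 by 2.30 (adjusted p = 0.0142). Both start from low levels. Atp2a1 had 0.1685 and 0.1734 CPM in scramble, at the floor of 3 counts, and Tnnt1 had 0.5616 and 0.3468. Of the 11 tested, DESeq2 called 3 in Brd9 and limma-voom 5. In Baf180 Acta1, skeletal actin, rose by 2.64 (adjusted p = 8.03e-05), while Ttn fell by 3.84 (adjusted p = 0.00692), a value of −0.74 and not called with the offsets. The scramble libraries lay far apart in Ttn, at 1.629 and 5.837 CPM. In Baf250A Acta1 rose by 1.20 (adjusted p = 0.00334) and Actc1 fell by 1.62 (adjusted p = 0.00526).

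Markers of some other cell types moved with the groups too. The 5 smooth muscle markers summed to 5457 and 6711 CPM in Brd9, 10380 and 8886 in Baf250A, 11360 and 9165 in Baf180, and 3593 and 3614 in scramble, with 3, 5 and 5 of 5 called higher. The 4 fibroblast markers, of which Tcf21 was at 0, summed to 303 and 296 CPM in Brd9, 283 and 261 in Baf250A, 351 and 359 in Baf180, and 149 and 144 in scramble. The 4 neural markers, of which 3 were tested, summed to 174 and 203 CPM in Brd9, 23.99 and 22.98 in Baf250A, 130 and 89.8 in Baf180, and 422 and 391 in scramble, with 1, 3 and 1 of 3 called lower. Endothelial markers summed to 0.281 to 0.630 CPM. Of the adipocyte and blood markers, 1 each was tested, and neither was called against scramble. The bone and cartilage markers summed to 164 and 150 CPM in Brd9, 151 and 169 in Baf250A, 103 and 118 in Baf180, and 155 and 148 in scramble. Of the 3 tested, 1 was called higher in Baf250A, 1 lower in Baf180 and 0 in Brd9. Every knockdown exceeded scramble in the smooth muscle and fibroblast sums, as in Cdkn2c, and lay below scramble in the neural sum. The first 2 sums were mostly 1 gene each. In scramble Acta2 had 3094 and 3121 CPM, and Col1a1 139.5 and 136.6. The neural gene called lower in Brd9 was Nefl (log2 fold change −2.36), while Tubb3 (−0.10) and Map2 (0.51) were not called. The part of these markers in the levels of the inhibitors was not tested.

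Genes near the members were looked up as well. Beside Cdkn1a, Rab44, 13406 bases away, had 4 and 2 counts in Brd9, 0 and 0 in Baf250A, 16 and 6 in Baf180, and 2 and 0 in scramble, too few to be tested. Its Baf180 counts were the highest, as those of Cdkn1a were. Srsf3, a splicing factor 47607 bases away, fell by 0.59 on the log2 scale in Baf180 (adjusted p = 0.0309, edgeR), which was 0.07 with the offsets. Trp53cor1, a p53-responsive RNA 11853 bases from Cdkn1a, had 19 and 26 counts in Brd9, 3 and 7 in Baf250A, 13 and 25 in Baf180, and 11 and 12 in scramble, with no difference from scramble called. It was higher than in Baf250A both in Brd9 (log2 fold change 2.13, SE 0.54, adjusted p = 0.0207, edgeR) and in Baf180 (2.03, SE 0.55, adjusted p = 0.0103), as Cdkn1a was, and both calls were kept with the offsets (adjusted p = 0.013 and 0.0224). Beside Cdkn1b, the RNA Lockd, 3567 bases away, fell by 0.89 in Brd9 (SE 0.24, adjusted p = 0.0448), while Cdkn1b itself was highest there. Neither Faf1 nor Rnf11, beside Cdkn2c, was called in Baf250A or Baf180. Beside Cdkn2d, Kri1, 490 bases away, fell by 0.63 in Brd9 (SE 0.165, adjusted p = 0.0442), which was −0.57 with the offsets. In Baf180 Kri1 was at −0.28 (adjusted p = 0.213), and at −0.65 with the offsets (adjusted p = 0.000848). Slc44a2, a choline transporter-like gene 29298 bases from Cdkn2d, rose by 1.00 in Baf180 (SE 0.14, adjusted p = 0.00127). It fell by 0.49 in Baf250A (SE 0.14, adjusted p = 0.0262). Both Slc44a2 changes were also called with the offsets, at 0.83 and −0.28. Gmfb, 36619 bases from Cdkn3, rose by 1.16 in Baf250A (adjusted p = 0.0154), which was 0.15 and not called with the offsets.

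For each member called against scramble, the tested genes of most similar pattern were found by Pearson's r of log2 CPM over the 8 libraries. This is a description, since the 8 points fall in 4 groups and share the GC trend. Nearest to Cdkn1a were Creld1 (r = 0.997), Jph2 (r = 0.996) and Sh2b2 (r = 0.996), which gave 0.969, 0.928 and 0.622 once the GC and length trend was taken out. Nearest to Cdkn2c were Gm2026 (r = 0.971), Vcam1 (r = 0.968) and Amigo2 (r = 0.967), which gave 0.717, 0.539 and 0.916. Nearest to Cdkn1c were a gene model with no symbol (gene ID 212427, r = 0.983), Tnfrsf11a (r = 0.979) and Ntn1 (r = 0.978), which gave 0.757, 0.368 and 0.805. The likeness of Creld1 and Jph2 to Cdkn1a and of Amigo2 to Cdkn2c thus changed least when the trend was removed.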

How the data were processed

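RNA of 8 C2C12 libraries, 2 for each of 4 shRNAs, was prepared at the Beijing Genomics Institute and sequenced on a BGISEQ-500, per the labels' protocols. The authors deposited a table of estimated counts per gene, with a further column of another value, the gene length in bases, per the file headers. Tools named without roles, per the submitters' processing notes, are RSEM, Bowtie2, HISAT2, StringTie, Cufflinks and DESeq2, with the build mm10. Versions and strandedness were not given in the sources used here. Overlapping genes are therefore uncertain, and no molecular identifiers are stated, so floors cover counting error only. The members and all gene lists were chosen with earlier results of these data known.

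Counts were rounded, filtered by filterByExpr (12420 genes left), scaled by TMM and fitted in 1 model of 4 groups with edgeR 4.0.16 (glmQLFit, glmQLFTest; R 4.3.3). P-values were adjusted by Benjamini-Hochberg over all genes of a comparison, and an adjusted p below 0.05 is a call. The SE is the absolute log2 fold change over the square root of F. Named genes are all members, up to 2 called genes of lowest p per list and comparison, the nearest genes of members, and the 3 genes of highest r with each called member, apart from those said to be chosen after their values were seen. GC and length offsets are loess trends (span 0.3) per library, from transcript GC content known for 98.95% of tested genes, and they also remove changes that follow GC content. Gene names and coordinates are from RefSeq on GRCm38, the assembly of mm10, with 24479 rows matched by gene ID, 9 by accession and 85 by none. The 2 libraries of each group differed by more than sampling noise (chi-square per degree of freedom 8.7 to 36.2). TPM was not compared between groups, because the median gene shifted by 0.30 in Brd9, 0.17 in Baf250A and −0.08 in Baf180 against scramble on the log2 scale. The fit without offsets was also run on simulated counts that held no GC or length trend, so that run does not bear on the offsets. Alternatives were upper-quartile and RLE scaling, a filter at 5 CPM or none, limma-voom (limma 3.58.1), DESeq2 1.42.0, a replicate block, the offsets, a fit of 4 libraries alone, and each library left out.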

Additional observations from a re-analysis of the deposited data

How the results depend on the processing

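With 2 libraries a group, single libraries decide several calls. Of 642 values of log2 fold changes of members under alternatives, 559 kept their direction and side of the threshold, 38 lost a call, 23 gained one and 22 changed sign. The causes were not tested. Members called with a library left out ranged from 0 to 0 in Brd9 against scramble, 0 to 2 in Baf250A, 1 to 4 in Baf180, 0 to 2 in Brd9 against Baf250A, 2 to 4 in Baf180 against Baf250A and 0 to 4 in Brd9 against Baf180. Without a low-count filter, and with 4 libraries alone, 1 was called in Brd9 (Cdkn1b) and 2 in Baf250A against scramble. Brd9 against Baf250A had 2 called with upper-quartile scaling, no filter, DESeq2, limma-voom or the offsets. With the GC and length offsets, 1 was called in Brd9 (Cdkn1a) and 3 in Baf250A against scramble, 1 in Baf180 against Baf250A and 1 in Brd9 against Baf180. Replicate numbers did not pair the libraries (correlations of same-numbered deviations −0.48 to 0.46), and the replicate block called 0 in Brd9 against Baf250A and changed one other call, Cdkn1c in Baf180 (adjusted p = 0.0515). The replicate block with the offsets called 1 in Brd9 and 2 in Baf250A against scramble, and 1 each in Baf180 against Baf250A and Brd9 against Baf180. Cdkn1c gave no value under the filter at 5 CPM.

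Signs changed as follows, with the offsets and then with the block and offsets together. In Baf250A against scramble, Cdkn1a was 0.23 and 0.23, Cdkn1c 0.38 and 0.38, and Cdkn2d 0.16 and 0.16. In Baf180 against Baf250A, Cdkn1b was 0.23 and 0.23, Cdkn1c −0.08 and −0.082, Cdkn2c −0.20 and −0.20, and Cdkn2d −0.10 and −0.10. Cdkn2d in Brd9 against Baf250A was 0.024 with upper-quartile scaling. With libraries left out, some values lay on both sides of 0. In Baf250A against scramble these were Cdkn1a (−0.149 to 0.065, the highest without Baf250A replicate 2), Cdkn1b (−0.22 to 0.038, the highest without Baf250A replicate 1) and Cdkn1c (−0.209 to 0.011, the highest without scramble replicate 1). Cdkn2d in Brd9 against Baf250A ranged from −0.142 to 0.021, and Cdkn3 in Brd9 against Baf180 from −0.357 to 0.235. Cdkn2c in Baf180 against Baf250A ranged from 0 to 0.159.

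Over all genes, calls in Brd9 against scramble numbered 1244, and 2588 with no filter, 2541 with 4 libraries alone, 721 with the replicate block, 3744 with the offsets, 3189 with both, and 231 to 381 without scramble replicate 1 or 2 or Brd9 replicate 1. Baf250A against scramble had 3669, and 1172 to 1524 without either scramble library or Baf250A replicate 2. Baf180 against scramble had 4253, and 1560 to 1755 without either scramble library or Baf180 replicate 1. Brd9 against Baf250A had 3108, 5481 with the offsets and 5079 with block and offsets, and Brd9 against Baf180 had 6158, 4101 and 3530 under the same settings.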
